A study of Mus musculus with 8 samples.

Results

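The genes described here encode the enzymes and chaperones that turn newly made procollagen chains into crosslinked collagen fibrils. They were chosen by symbol, as the 10 rows of the deposited table that carry the names *P4ha1*, *P4ha2*, *P4ha3*, *Plod1*, *Plod2*, *Serpinh1*, *Lox*, *Loxl1*, *Loxl2* and *Pcolce*, out of 18990 genes in all. All 10 passed the filter on low values. The measurements are RNA-seq profiles of mouse embryonic fibroblasts (MEFs) on their way to induced pluripotent stem cells. The primary cells were wild-type, of the BL6 strain, and carried lentiviruses for rtTA and for tet-STEMCCA, a doxycycline-inducible cassette with Oct4, Sox2, Klf4 and c-Myc (OSKM), added at an MOI of 1. They were reprogrammed at passage 2 after transfection with 40 nM of pooled siRNAs against *Ncor1*, a transcriptional corepressor, or against *Oct4*. RNA was collected at day 3 or day 6, which gives 4 groups (*siNcor1* day 3, *siOct4* day 3, *siNcor1* day 6 and *siOct4* day 6) with 2 biological replicates each. All groups shared a medium with serum, 2 µg/mL doxycycline, 3 µM chiron, 0.25 µM of an Alk5 inhibitor that blocks TGFb signalling, 50 µg/mL ascorbic acid and LIF. Libraries of a non-targeting control were not analysed here, so the knockdowns were compared with each other and the days within each knockdown.

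Fibrillar collagens need a series of modifications that few other proteins receive. In the endoplasmic reticulum, prolyl 4-hydroxylases make the hydroxyproline that keeps the triple helix stable, lysyl hydroxylases prepare the sites of later crosslinks, and the chaperone HSP47 holds the folded helix until it leaves. Outside the cell the propeptides are cut off, and lysyl oxidases convert lysines to aldehydes that join neighbouring molecules. The hydroxylases use ascorbic acid as a cofactor, and fibroblasts are among the cells in which the whole series is most active. Several of these genes are known targets of the hypoxia-inducible factors and of TGFb.

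The 8 libraries held between 7735742 and 16445192 reads on genes, and the 10 genes had between 99 reads (*P4ha3*) and 16444 reads (*Serpinh1*) in a library. Values are given as log2-cpm, the deposited log2 of the reads of a gene relative to the library size (CPM). They compare 1 gene between libraries. Levels of different genes are compared as RPKM, which divides the CPM by the exon length in kb, counted over all annotated exons of the gene. Differences were tested with limma on the log2-cpm values over 13866 genes, and a gene is called where the adjusted p was under 0.05. The siRNA target of the second knockdown, *Pou5f1* (OCT4), differed by −0.08 on the log2 scale from *siNcor1* at day 3 (adjusted p = 0.941). It was higher than in *siNcor1* at day 6 (1.78, adjusted p = 1.1e-04). Without a control these values do not measure the knockdown, so these are called the *siOct4*-labelled libraries. The paper reports no high knockdown efficiency in these samples at the earlier day. In time courses it found this mRNA efficiently silenced before that, with a rapid recovery. It ascribes the recovery to overexpression from the inducible cassette. Reads from the cassette and from the endogenous gene were not separated here. *Ncor1* was 0.74 higher on the log2 scale in the *siOct4*-labelled libraries than in *siNcor1* at day 3 (adjusted p = 0.0139), and differed by −0.04 at day 6 (adjusted p = 0.815). One non-coding gene, *Gm26917*, accounted for 15.5% to 16.6% of day 3 reads and for 20.3% to 29.1% of day 6 reads. A scaling by library totals without this gene was put in place of the deposited scaling as a whole. It moved the median change of all tested genes from day 3 to day 6 in the *siOct4*-labelled libraries from −0.08 to 0.06. With library totals that kept the gene, in a voom fit, this median was −0.14. The part of *Gm26917* alone in the move was not tested. Calls among the 10 genes that the scaling without it alters are given with their genes. The p-values rest on 2 libraries a group. Their estimate of spread is pooled over the 4 groups for each gene and drawn toward a trend over all tested genes. It is therefore not the spread of the libraries compared alone, and leaving out a library of another group can alter a call.

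The alpha subunits of prolyl 4-hydroxylase are the catalytic part of the enzyme. Their promoter sequences are shown first, since the results turn in part on how far the 3 paralogs changed. RefSeq windows of 300 bases (250 before and 50 after the RefSeq start of the gene, GRCm38.p6) were at hand for 6 of the 10 genes, namely the 3 alpha subunits, *Plod1*, *Serpinh1* and *Pcolce*. The core of the hypoxia response element (ACGTG or GCGTG, either strand) was present in 5 of the 6 windows, and in 43.8% of 32851 windows of all genes. It was found in the windows of *P4ha1* and *P4ha2* and not in that of *P4ha3*. A GC box (GGGCGG, either strand, overlapping matches counted) was present in all 6 windows, against 35.7% of all windows, the TATA box (TATAAA) in 2 of the 6, against 13.6%, and the AP-1 site (TGACTCA) in 0 of the 6, against 5.20%. The 180 bases before the RefSeq start of each alpha subunit gene are given 5′ to 3′ on the plus strand of GRCm38.p6, from chr10:59323116-59323295 for *P4ha1*, chr11:54100744-54100923 for *P4ha2* and chr7:100285340-100285519 for *P4ha3*. The RefSeq start of *P4ha2* lies inside the GENCODE gene model given further on, downstream of its first base. Capitals mark the hypoxia response core in *P4ha1* and *P4ha2*, with 3 matches each, and the GC boxes in *P4ha3*, with 5 matches.
P4ha1: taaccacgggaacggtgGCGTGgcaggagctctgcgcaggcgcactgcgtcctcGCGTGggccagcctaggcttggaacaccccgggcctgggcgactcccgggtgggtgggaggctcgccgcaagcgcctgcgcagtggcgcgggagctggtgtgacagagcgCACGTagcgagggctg
P4ha2: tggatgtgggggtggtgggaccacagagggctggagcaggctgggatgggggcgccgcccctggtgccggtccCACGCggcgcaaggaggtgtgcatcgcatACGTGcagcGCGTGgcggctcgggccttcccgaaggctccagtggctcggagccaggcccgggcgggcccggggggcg
P4ha3: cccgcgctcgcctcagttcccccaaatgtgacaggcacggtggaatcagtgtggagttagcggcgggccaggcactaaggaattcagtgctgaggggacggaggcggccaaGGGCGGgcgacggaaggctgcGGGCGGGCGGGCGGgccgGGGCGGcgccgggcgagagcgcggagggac
These matches describe letters in the reference sequence, and no binding of a factor was measured here.

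*P4ha1* (ENSMUSG00000019916, chr10:59323296-59373304 on the plus strand of mm10) encodes the alpha subunit with the broadest expression. Its levels were 5.68 and 5.69 log2-cpm in *siNcor1* and 6.07 and 6.02 in the *siOct4*-labelled libraries at day 3, and 5.59 and 5.82 against 5.57 and 5.70 at day 6. The *siOct4*-labelled libraries lay above *siNcor1* at day 3, and the groups overlapped at day 6. The difference was 0.35 at day 3 (standard error 0.13, adjusted p = 0.270) and −0.07 at day 6 (95% interval −0.34 to 0.21, adjusted p = 0.715), and neither was called. From day 3 to day 6 the gene fell by 0.41 in the *siOct4*-labelled libraries (adjusted p = 0.0165), while in *siNcor1* the change was 0.02 (adjusted p = 0.939). That decrease was no longer called with quantile normalization (−0.19, adjusted p = 0.243) or with *Gm26917* left out of the totals (−0.27, adjusted p = 0.0936), nor without replicate 1 or 2 of *siOct4* day 3 (adjusted p = 0.0880 and 0.0618) or replicate 1 of *siOct4* day 6 (adjusted p = 0.0564).

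*P4ha2* (ENSMUSG00000018906, chr11:54100095-54131665, plus strand), the second alpha subunit, had 4.53 and 4.42 log2-cpm in *siNcor1* and 4.92 and 5.15 in the *siOct4*-labelled libraries at day 3. At day 6 the levels were 4.25 and 4.03 in *siNcor1* and 3.90 and 3.69 in the *siOct4*-labelled libraries. The order of the knockdowns was opposite on the 2 days, without overlap on either. Neither difference was called (0.56, adjusted p = 0.143, at day 3, and −0.35, adjusted p = 0.115, at day 6), but the change between them was (−0.91, standard error 0.22, adjusted p = 0.0157). The decrease over time was 1.24 log2 units in the *siOct4*-labelled libraries (adjusted p = 5.8e-05), or 2.36-fold, and was not called in *siNcor1* (−0.33, adjusted p = 0.119). The call of the change between days was lost without replicate 2 of *siNcor1* day 3 (adjusted p = 0.0789), replicate 2 of *siOct4* day 3 (adjusted p = 0.0783) or replicate 1 of *siNcor1* day 6 (adjusted p = 0.0649).

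*P4ha3* (ENSMUSG00000051048, chr7:100285520-100319699, plus strand), the third alpha subunit, showed the same order of groups. Its levels were 4.56 and 4.15 log2-cpm in *siNcor1* and 4.88 and 4.97 in the *siOct4*-labelled libraries at day 3, and 3.96 and 4.06 against 3.41 and 3.43 at day 6. The *siOct4*-labelled libraries were the highest of the series at day 3 and the lowest at day 6. At day 6 the gene was 0.60 lower in them (standard error 0.16, adjusted p = 0.0182), a call that did not hold without replicate 1 (adjusted p = 0.0586) or replicate 2 (adjusted p = 0.129) of *siNcor1* day 6. The day 3 difference of 0.57 was not called (adjusted p = 0.164). Over time *P4ha3* fell by 1.51 in the *siOct4*-labelled libraries (adjusted p = 2.1e-05, 2.84-fold), and changed by −0.35 in *siNcor1* (adjusted p = 0.124). The difference between these changes was −1.16 (adjusted p = 0.00596).

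**Figure D1:**
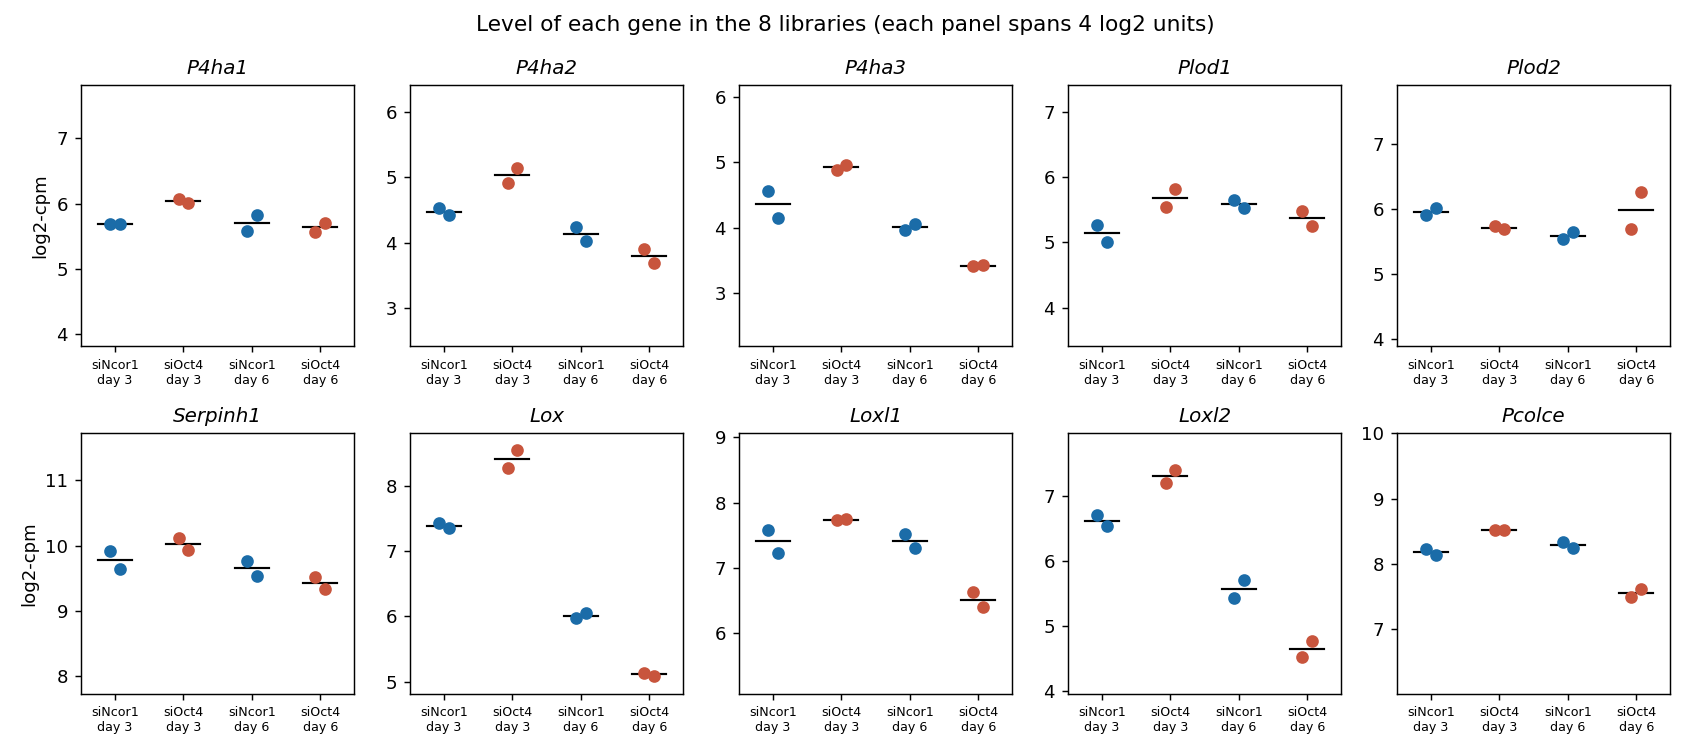
Level of each of the 10 genes in log2-cpm (y axis, each panel spanning the same number of log2 units) in the 4 groups (x axis), where points are single libraries and bars are group means. *Lox* fell from 8.27 and 8.54 to 5.13 and 5.08 in the *siOct4*-labelled libraries, whereas *P4ha1* stayed between 5.57 and 6.07.

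The mixture of the RNA of the 3 alpha subunits was compared between the groups. At day 3 the shares of *P4ha1* and *P4ha3* overlapped between the knockdowns. Of the summed RPKM of the 3 alpha subunits, *P4ha1* held 55.4% ± 3.79 (SD, n = 2) in *siNcor1* and 51.8% ± 2.32 in the *siOct4*-labelled libraries at day 3, and 61.4% ± 2.82 and 68.4% ± 2.23 at day 6. *P4ha3* held 28.9%, 31.2%, 24.8% and 19.1% in the same order of groups, and *P4ha2* between 12.5% and 17.0%. The *P4ha1* share was higher in every day 6 library (59.4% to 69.9%) than in every day 3 library (50.2% to 58.1%). These shares are descriptions that depend on the exon lengths used, and were not tested. The beta subunit, *P4hb* (protein disulphide isomerase, which also folds other proteins), had 9.41 and 9.50 log2-cpm in *siNcor1* and 9.67 and 9.59 in the *siOct4*-labelled libraries at day 3, and 9.35 and 9.40 against 8.78 and 9.01 at day 6. It was 0.48 lower in the latter at day 6 (adjusted p = 0.0198).

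The group means of the lysyl hydroxylases did not all move in the same direction, though no comparison of *Plod2*, the one that stood apart, was called. *Plod1* (ENSMUSG00000019055, chr4:147909753-147936767, minus strand), which hydroxylates lysines of the helix, had 5.27 and 5.01 log2-cpm in *siNcor1* and 5.54 and 5.81 in the *siOct4*-labelled libraries at day 3, and 5.65 and 5.52 against 5.48 and 5.26 at day 6. The *siOct4*-labelled libraries were higher at day 3 and lower at day 6. Neither difference was called (0.53, adjusted p = 0.138, and −0.22, adjusted p = 0.286). *Plod1* was the 1 gene of the 10 that rose in *siNcor1* over time, by 0.45 (standard error 0.15, adjusted p = 0.0357). In the *siOct4*-labelled libraries it changed by −0.31 (adjusted p = 0.10, and −0.42 with adjusted p = 0.0459 without replicate 1 of *siOct4* day 6), and the difference between these changes was −0.75 (adjusted p = 0.0268). Both calls were fragile. The rise was not called without replicate 2 of *siNcor1* day 3 (0.32, adjusted p = 0.250), without replicate 1 or 2 of *siNcor1* day 6 (adjusted p = 0.196 and 0.0865) or without a variance trend (adjusted p = 0.0818), and the difference between the changes was lost under the same 4 settings and without replicate 2 of *siOct4* day 3 (adjusted p between 0.0700 and 0.128).

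*Plod2* (ENSMUSG00000032374, chr9:92542223-92608428, plus strand), which hydroxylates the telopeptides and so sets the kind of crosslink, had the opposite pattern. The levels were 5.91 and 6.01 log2-cpm in *siNcor1* and 5.73 and 5.69 in the *siOct4*-labelled libraries at day 3, and 5.54 and 5.65 against 5.69 and 6.26 at day 6. It was the 1 gene of the 10 with a lower mean in the *siOct4*-labelled libraries at day 3 and the 1 with a higher mean at day 6, but its 2 *siOct4*-labelled libraries at day 6 were far apart. No comparison was called: −0.24 at day 3 (adjusted p = 0.714), 0.39 at day 6 (adjusted p = 0.0967), −0.37 over time in *siNcor1* (adjusted p = 0.106), 0.26 in the *siOct4*-labelled libraries (adjusted p = 0.197) and 0.63 for the difference between the changes (adjusted p = 0.0753). Without replicate 1 of *siOct4* day 6, the values of 0.67 at day 6 (adjusted p = 0.00326), −0.37 in *siNcor1* (adjusted p = 0.0142), 0.55 over time (adjusted p = 0.00381) and 0.91 for the difference (adjusted p = 0.00266) all passed, and without replicate 2 the change over time was −0.02 and that in *siNcor1* was called as well (adjusted p = 0.0147). With quantile normalization the day 6 difference (0.45, adjusted p = 0.0388), the change over time in the *siOct4*-labelled libraries (0.48, adjusted p = 0.0202) and the difference between the changes (0.70, adjusted p = 0.0372) were called. Without *Gm26917* in the totals the latter values were 0.40 (adjusted p = 0.0478) and 0.69 (adjusted p = 0.0426). The difference between the changes was also called with median centring (0.66, adjusted p = 0.0448) and in a fit blocked on replicate number (0.63, adjusted p = 0.0452), and the change in *siNcor1* with only the groups compared (−0.37, adjusted p = 0.0183). A gene model on the opposite strand, *Gm38391*, overlaps 346 bp of its exons, and had at most 2.12 CPM.

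*Plod3*, the third lysyl hydroxylase, had 7.06 and 7.0 log2-cpm in *siNcor1* and 7.33 and 7.38 in the *siOct4*-labelled libraries at day 3. At day 6 it had 7.02 and 7.03 against 6.41 and 6.43, and was 0.60 lower in the latter (adjusted p = 0.00226). It was the most abundant of the family per length, with 51.4% to 67.7% of the summed RPKM as group means. The *Plod2* share was 25.2%, 18.1%, 19.9% and 31.9% (SD 6.48) in *siNcor1* day 3, *siOct4* day 3, *siNcor1* day 6 and *siOct4* day 6, and the *Plod1* share was 11.4%, 14.1%, 15.8% and 16.6% in the same order. None of these shares was tested.

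**Figure D2:**
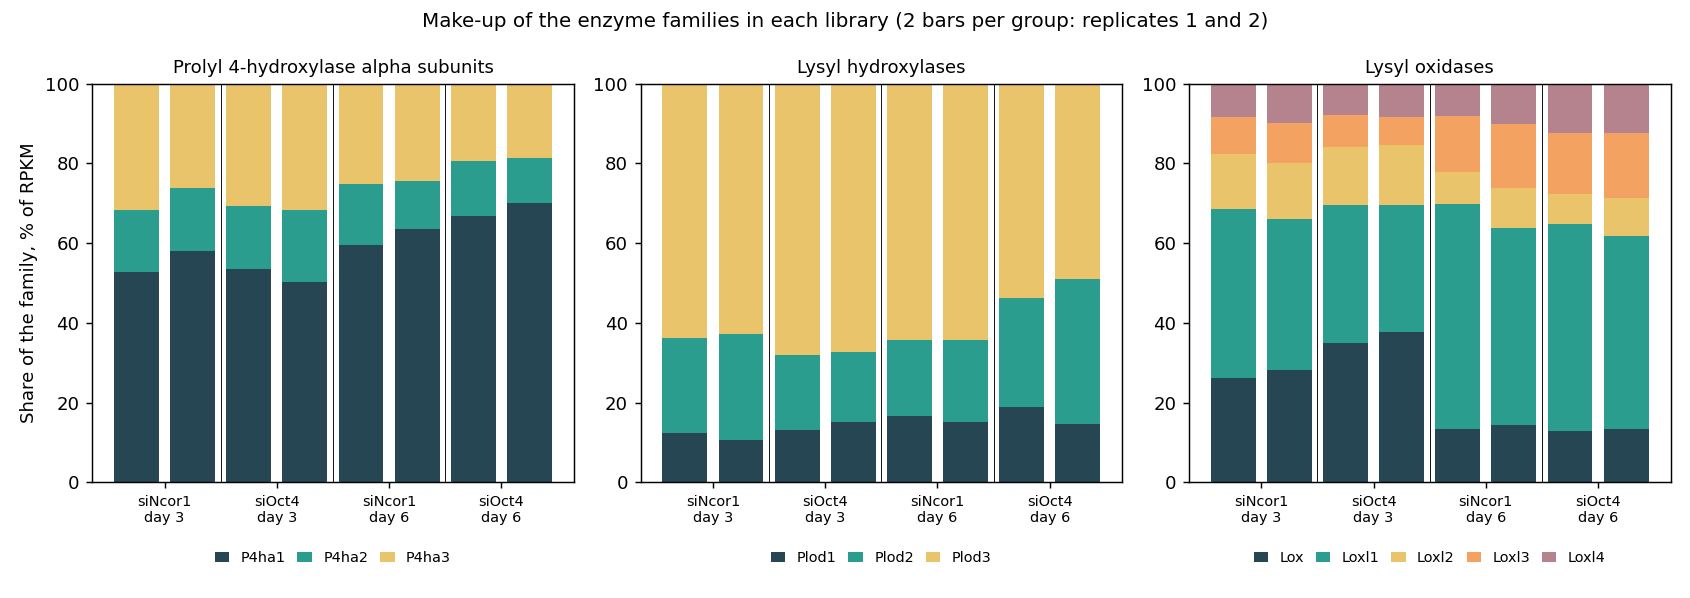
Share of each gene in the summed RPKM of its enzyme family (y axis, percent) in each library (x axis, 2 bars per group) for the prolyl 4-hydroxylase alpha subunits, the lysyl hydroxylases and the lysyl oxidases. *P4ha1* took a mean of 68.4% at *siOct4* day 6, and *Lox* a mean of 36.3% at *siOct4* day 3 and 13.1% at *siOct4* day 6.

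*Serpinh1* (ENSMUSG00000070436, chr7:99345376-99353239, minus strand), the gene for the collagen chaperone HSP47, was by far the most abundant of the 10. Its levels were 9.92 and 9.65 log2-cpm in *siNcor1* and 10.12 and 9.93 in the *siOct4*-labelled libraries at day 3, and 9.77 and 9.54 against 9.53 and 9.34 at day 6. The spread between replicates was as large as the difference between the knockdowns, which was 0.24 at day 3 (adjusted p = 0.701) and −0.22 at day 6 (95% interval −0.57 to 0.12, adjusted p = 0.306). *Serpinh1* fell by 0.59 in the *siOct4*-labelled libraries over time (adjusted p = 0.0076), which was not called without replicate 1 of *siOct4* day 3 (−0.50, adjusted p = 0.0559), and changed by −0.13 in *siNcor1* (adjusted p = 0.555).

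*Pcolce* (ENSMUSG00000029718, chr5:137605103-137613784, minus strand) encodes an enhancer of the proteinase that removes the C-terminal propeptide. It had 8.22 and 8.14 log2-cpm in *siNcor1* and 8.52 and 8.52 in the *siOct4*-labelled libraries at day 3, and 8.33 and 8.24 against 7.5 and 7.61 at day 6. The groups did not overlap on either day, and their order turned. The difference of 0.34 at day 3 was not called (adjusted p = 0.242), and at day 6 *Pcolce* was 0.73 lower in the *siOct4*-labelled libraries (standard error 0.12, adjusted p = 0.00118), or 1.66-fold. It fell by 0.97 over time there (adjusted p = 3.8e-05), while the change in *siNcor1* was 0.11 (adjusted p = 0.50), and these changes differed by −1.07 (adjusted p = 0.00153). Exons of *Fbxo24* on the same strand and of *Gm36266* on the other overlap 112 of its 3823 exonic bp, with at most 1.37 and 1.19 CPM. The related *Pcolce2* went the other way at day 6, with 5.14 and 5.16 log2-cpm in *siNcor1* and 5.62 and 5.63 in the *siOct4*-labelled libraries (0.48 higher, adjusted p = 0.0169). *Bmp1*, the proteinase itself, was 0.75 lower at day 6 (adjusted p = 0.00110).

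*Lox* and *Loxl2* held the largest changes over time among the 10 genes. *Lox* (ENSMUSG00000024529, chr18:52516067-52529867, minus strand) had 7.43 and 7.35 log2-cpm in *siNcor1* and 8.27 and 8.54 in the *siOct4*-labelled libraries at day 3. At day 6 it had 5.97 and 6.05 in *siNcor1* and 5.13 and 5.08 in the *siOct4*-labelled libraries. No 2 groups overlapped, and the *siOct4*-labelled libraries went from the highest level to the lowest. *Lox* was 1.02 higher in them at day 3 (standard error 0.12, adjusted p = 0.0049), or 2.03-fold, and 0.90 lower at day 6 (standard error 0.12, adjusted p = 5.8e-04), or 1.87-fold. The day 3 call did not hold without replicate 1 (1.06, adjusted p = 0.0654) or replicate 2 (0.98, adjusted p = 0.0827) of *siNcor1* day 3. Over time *Lox* fell in both knockdowns, by 1.38 in *siNcor1* (2.60-fold, adjusted p = 2.4e-05) and by 3.30 in the *siOct4*-labelled libraries (9.84-fold, adjusted p = 2.1e-08). These changes differed by −1.92 (standard error 0.17, adjusted p = 2.4e-04). In these bulk samples, fewer fibroblasts and less RNA of a gene per cell cannot be told apart, here and for the other genes.

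*Loxl2* (ENSMUSG00000034205, chr14:69609068-69695834, plus strand), a lysyl oxidase with scavenger receptor domains, had nearly the same course. Its levels were 6.70 and 6.54 log2-cpm in *siNcor1* and 7.19 and 7.40 in the *siOct4*-labelled libraries at day 3, and 5.43 and 5.71 against 4.53 and 4.78 at day 6. Again no 2 groups overlapped. The day 3 difference of 0.68 (standard error 0.14) fell just outside the threshold (adjusted p = 0.0502), and passed it under 7 of the other settings, among them median centring (adjusted p = 0.0334) and totals without *Gm26917* (0.64, adjusted p = 0.0494), and without replicate 1 or 2 of *siOct4* day 6 (adjusted p = 0.0115 and 0.0118). At day 6 *Loxl2* was 0.91 lower in the *siOct4*-labelled libraries (adjusted p = 0.00124). Over time it fell by 1.05 in *siNcor1* (2.07-fold, adjusted p = 3.3e-04) and fell by 2.64 in the *siOct4*-labelled libraries (6.24-fold, adjusted p = 2.0e-07), a difference of −1.59 (adjusted p = 7.9e-04). The antisense model *Gm27177* overlaps 301 bp of its exons.

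*Loxl1* (ENSMUSG00000032334, chr9:58287738-58313186, minus strand), known above all for the crosslinking of elastin, differed from *Lox* and *Loxl2* in *siNcor1*. It had 7.59 and 7.23 log2-cpm in *siNcor1* and 7.73 and 7.75 in the *siOct4*-labelled libraries at day 3, and 7.52 and 7.30 against 6.63 and 6.39 at day 6. The *siNcor1* libraries of both days overlapped, and the *siOct4*-labelled ones lay above them at day 3 and below them at day 6. The gene was 0.90 lower there than in *siNcor1* (standard error 0.15, adjusted p = 0.00133), while the day 3 difference was 0.33 (adjusted p = 0.439). It fell by 1.23 over time in the *siOct4*-labelled libraries (adjusted p = 3.6e-05, 2.35-fold), and in *siNcor1* the change was 0.00 with a 95% interval of −0.31 to 0.32. The changes differed by −1.23 (adjusted p = 0.00228).

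**Figure D3:**
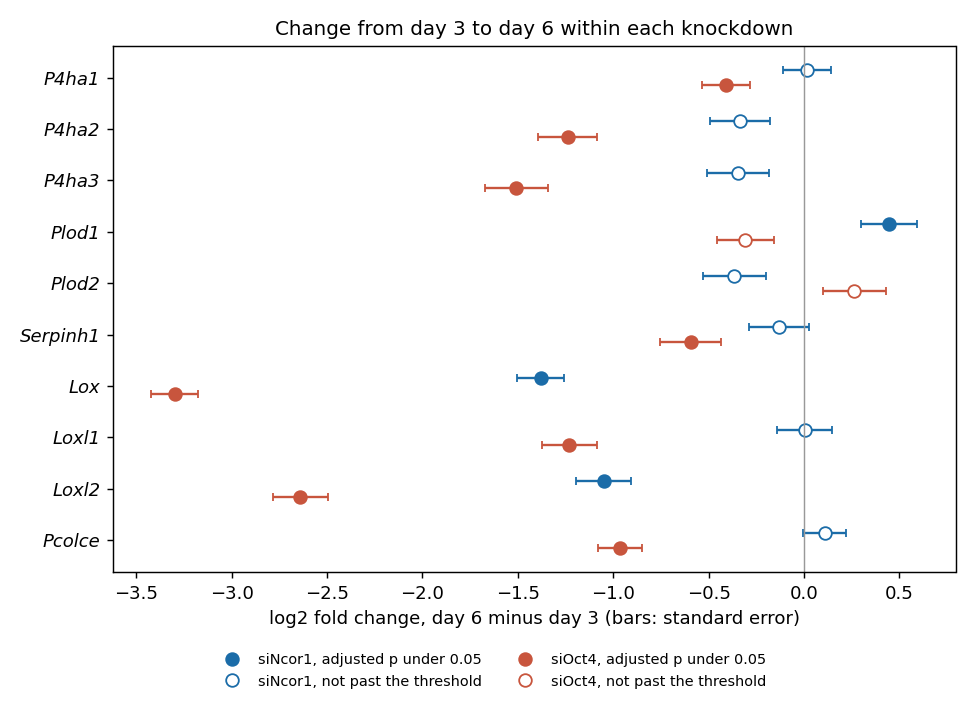
Change of each gene from day 3 to day 6 (x axis, log2 fold change with its standard error) within *siNcor1* (blue) and within the *siOct4*-labelled libraries (red), with filled points for an adjusted p under 0.05. *Lox* and *Loxl2* fell in both, by 1.38 and 1.05 in *siNcor1* and by 3.30 and 2.64 in the *siOct4*-labelled libraries, and *Loxl1* did so in the latter only by this threshold.

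Within the family, *Lox* held 27.2% ± 1.48 and 36.3% ± 2.07 of the summed RPKM of the 5 lysyl oxidases at day 3, in *siNcor1* and in the *siOct4*-labelled libraries, and 13.8% ± 0.72 and 13.1% ± 0.48 at day 6. *Loxl1* held 40.0% and 33.2% at day 3 and 53.0% and 50.2% at day 6. At day 6 the shares of both genes overlapped between the knockdowns, although their levels did not. *Loxl3* took between 7.58% and 15.8% and *Loxl4* between 8.08% and 12.4%. At day 6, *Loxl3* was 0.74 lower (adjusted p = 0.00133) and *Loxl4* 0.39 lower (adjusted p = 0.0496) in the *siOct4*-labelled libraries.

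Per length, the order of the 10 genes was led by *Serpinh1* (363, 428, 331 and 283 RPKM as means of *siNcor1* day 3, *siOct4* day 3, *siNcor1* day 6 and *siOct4* day 6) and *Pcolce* (75.8, 96.1, 81.7 and 49.2 RPKM), and closed by *P4ha2* (3.54, 5.24, 2.81 and 2.21 RPKM) in all 4 groups. The last rank depends on the exon lengths used, which were 6239 bp for *P4ha2* and 3135 bp for *P4ha3*. As CPM, the group means of *P4ha2* lay above those of *P4ha3*. They were 22.1 against 20.6, 32.7 against 30.2, 17.5 against 16.0 and 13.8 against 10.5, in the same order of groups. The rank of *Lox* differed between the groups. It had rank 4 at *siNcor1* day 3 with 35.1 RPKM, shared ranks 3 and 4 with *Loxl1* at *siOct4* day 3 (71.4 and 64.8 RPKM, with overlapping libraries), was level with *P4ha1* at *siNcor1* day 6 (13.4 and 12.7 RPKM, overlapping) and had rank 6 at *siOct4* day 6 with 7.20 RPKM, under *P4ha1* (12.1) and *Plod2* (11.9), which overlapped each other. Other neighbours whose libraries overlapped were *P4ha3* and *Plod1* at *siNcor1* day 3, *Plod2* and *P4ha3* at *siOct4* day 3, and *Plod2* and *Loxl2* at *siNcor1* day 6.

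Counted as a list at day 3, 1 of the 10 genes was called higher in the *siOct4*-labelled libraries and 0 were called lower, where 0.375% and 0.692% of all 13866 tested genes were called in these directions. Over all genes, limma called 148 at day 3, and 1460 had an unadjusted p under 0.05. The median difference was 0.44, against −0.02 over all tested genes. At day 6, 0 were called higher and 5 lower (*P4ha3*, *Lox*, *Loxl1*, *Loxl2* and *Pcolce*), where 12.1% and 18.6% of all tested genes were called, and the median was −0.47 against −0.03. From day 3 to day 6 in *siNcor1*, 1 rose and 2 fell, against 13.8% and 20.9% of all genes, a share near the background, with a median of −0.23 against −0.07. In the *siOct4*-labelled libraries 0 rose and 8 fell, against 22.2% and 30.5%, with a median of −1.10 against −0.08. For the change of the knockdown difference between days, 0 were called higher and 7 lower, against 7.77% and 12.9%, with a median of −0.99 against 0.01. The 2 comparisons over time share libraries with the comparisons between knockdowns, so these counts are not independent of each other.

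**Figure D4:**
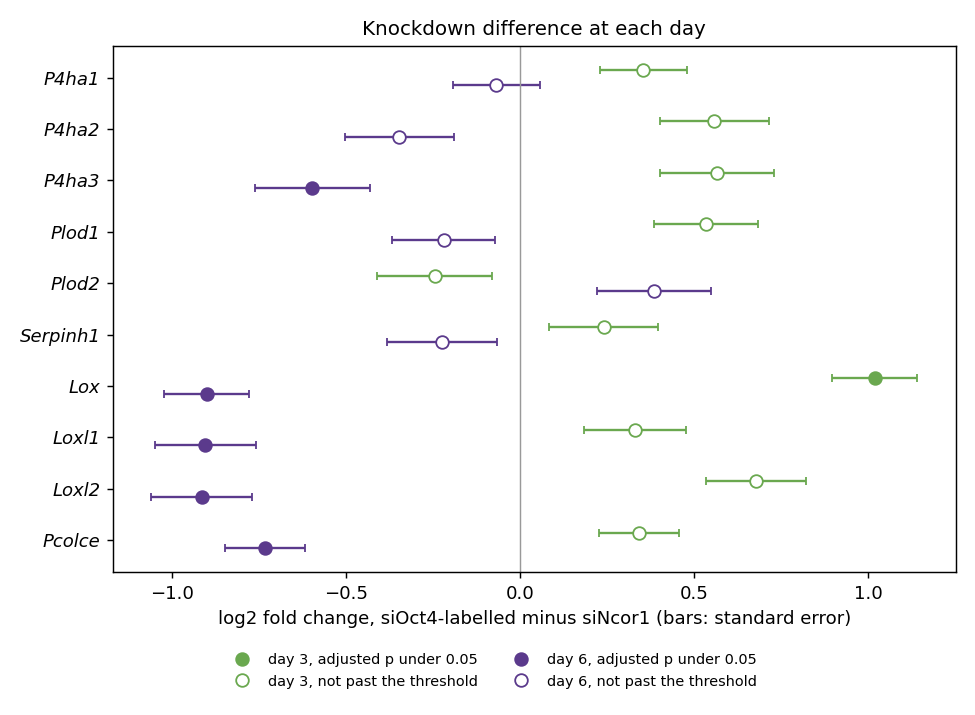
Difference between the *siOct4*-labelled libraries and *siNcor1* for each gene (x axis, log2 fold change with its standard error) at day 3 (green) and day 6 (purple), with filled points for an adjusted p under 0.05. Of the 10 genes, *Lox* was called higher at day 3 (1.02) and 5 genes were called lower at day 6, and *Plod2* had the opposite signs (−0.24 and 0.39).

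Other genes that modify collagen in the endoplasmic reticulum were examined as a list. Of 12 tested, 2 were called higher in the *siOct4*-labelled libraries at day 3, *Creb3l1* (0.95, adjusted p = 0.0122), a transcription factor for collagen genes, and *Fkbp10* (0.55, adjusted p = 0.0380), a chaperone that assists lysyl hydroxylation. At day 6, 8 of the 12 were called lower and 0 higher, among them *P3h3* (−0.76) and *Fkbp10* (−0.75), while *Crtap*, which is needed for prolyl 3-hydroxylation, was not called (−0.25, adjusted p = 0.130). Over time in the *siOct4*-labelled libraries 9 fell, led by *Creb3l1* (−1.66) and *Fkbp10* (−1.61), and 1 rose, *Ppib* (0.74), a prolyl isomerase. In *siNcor1* 2 rose (*P3h3*, 0.77, and *Ppib*, 0.50) and 2 fell (*Mia3*, −0.36, and *Fkbp10*, −0.31). The change between days was called lower for 8 and higher for 0. The median difference of the 12 was 0.27 at day 3 and −0.45 at day 6, against −0.02 and −0.03 over all tested genes. For this list and those below, the shares of all tested genes called higher and lower were 0.375% and 0.692% at day 3. At day 6 they were 12.1% and 18.6%. Over time they were 13.8% and 20.9% in *siNcor1*, and 22.2% and 30.5% in the *siOct4*-labelled libraries. For the change between days they were 7.77% and 12.9%.

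Among 8 other genes for processing and crosslinking outside the cell, 0 were called at day 3, and 6 were called lower and 1 higher at day 6 in the *siOct4*-labelled libraries. The proteinases *Tll1* (−1.15) and *Adamts2* (−0.83) were among the lower ones, and *Pcolce2* was the higher one. In *siNcor1* the procollagen N-proteinases *Adamts14* (1.76) and *Adamts2* (1.00) rose over time, and *Tll1* (−1.35), *Pcolce2* (−0.58) and *Loxl4* (−0.39) fell. Over time in the *siOct4*-labelled libraries 5 fell, led by *Tll1* (−3.02) and *Loxl4* (−1.21), and *Adamts14* rose (0.77). The change between days was called lower for 6 and higher for 0. The median difference was 0.35 at day 3 and −0.70 at day 6.

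The substrates of these enzymes are the fibrillar collagens. Of 9 fibrillar collagen genes, 0 were called at day 3, and 6 were lower and 0 higher in the *siOct4*-labelled libraries at day 6, with *Col11a1* (−1.16) and *Col1a1* (−1.01) in the lead. *Col1a1*, the main chain of type I collagen, had 11.90 and 11.82 log2-cpm in *siNcor1* and 12.43 and 12.72 in the *siOct4*-labelled libraries at day 3, and 10.64 and 10.78 against 9.71 and 9.68 at day 6. *Col1a2* was 0.86 lower (adjusted p = 0.00169) and *Col3a1* 0.83 lower (adjusted p = 0.00396) at day 6. Over time in *siNcor1* 5 fell, among them *Col2a1* (−2.12) and *Col1a1* (−1.15), and 3 rose (*Col5a3*, 1.12, *Col11a2*, 0.88, and *Col3a1*, 0.58). In the *siOct4*-labelled libraries 7 fell, led by *Col2a1* (−3.41) and *Col1a1* (−2.88), and *Col11a2* (1.59) and *Col5a3* (0.63) rose. The change between days was called lower for 7 and higher for 0.

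Set against the mean log2-cpm of *Col1a1*, *Col1a2* and *Col3a1* in the same library, *Lox* and *Loxl2* lost ground from day 3 to day 6 in both knockdowns and the other 8 genes gained it, as group means. In *siNcor1*, however, the libraries of both days overlapped for *P4ha2*, *P4ha3*, *Plod2*, *Serpinh1* and *Loxl1*. *Lox* lay 3.23 ± 0.17 and 2.69 ± 0.03 below the collagen mean at day 3 (SD, n = 2, *siNcor1* and *siOct4*-labelled) and 4.22 ± 0.05 and 4.22 ± 0.05 below it at day 6. *Loxl2* lay 4.66 and 4.68 below the collagen mean at day 6, and *Loxl1* 2.82 and 2.82 below it. In the *siOct4*-labelled libraries *Serpinh1* went from 1.07 ± 0.29 below the collagen mean at day 3 to 0.10 ± 0.15 above it at day 6, and *P4ha1* from 5.06 ± 0.19 to 3.70 ± 0.08 below it. *Plod2* went from 5.39 ± 0.19 to 3.36 ± 0.38 below it. In *siNcor1* the same genes went from 0.83 to 0.58 (*Serpinh1*), from 4.93 to 4.53 (*P4ha1*) and from 4.66 to 4.64 (*Plod2*) below the mean. There *P4ha2* went from 6.15 to 6.09 and *P4ha3* from 6.26 to 6.22 below it. These values were not tested, and log2-cpm is not scaled for length, so the offset of a gene carries its length while its change does not.

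**Figure D5:**
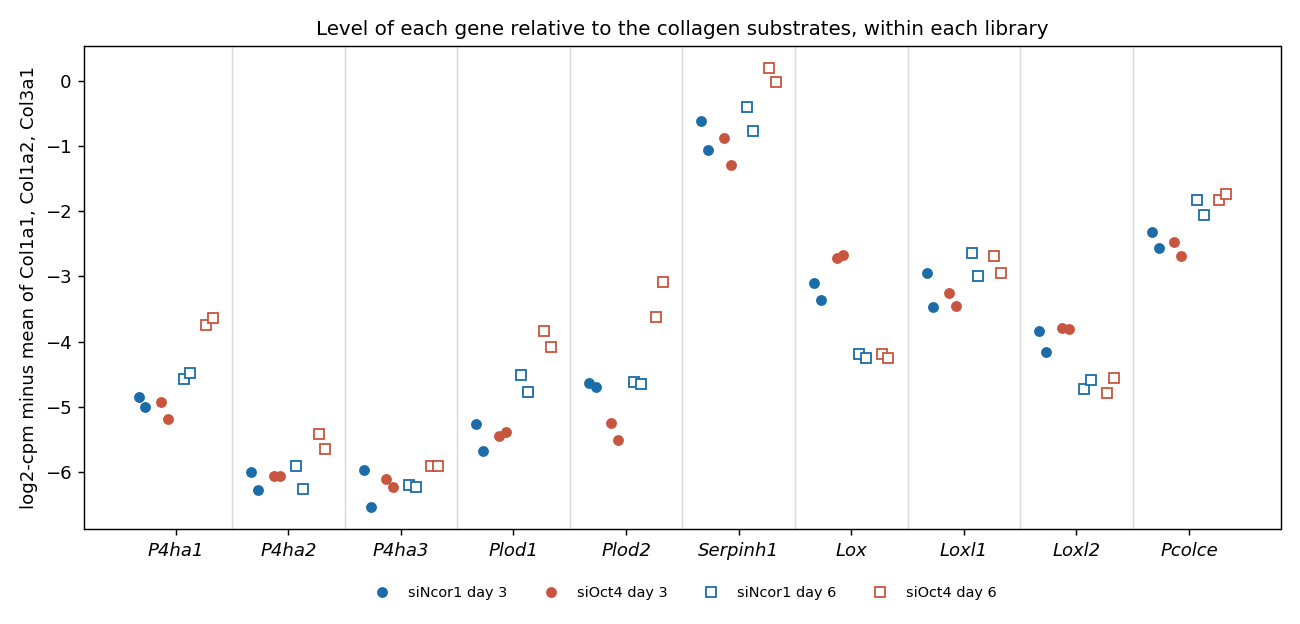
Level of each gene minus the mean of *Col1a1*, *Col1a2* and *Col3a1* in the same library (y axis, difference of log2-cpm, not scaled for length) for the 10 genes (x axis), with 1 point per library. At day 6, the *Lox*, *Loxl1* and *Loxl2* points of both knockdowns coincide within their spread. Those of *P4ha1*, *P4ha2*, *P4ha3*, *Plod1*, *Plod2* and *Serpinh1* lie higher in the *siOct4*-labelled libraries than in *siNcor1*, and those of *Pcolce* do so by a narrow margin.

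General protein folding in the endoplasmic reticulum was looked at through 11 chaperones and isomerases. Of these, 0 were called at day 3, and 2 were lower (*Calr*, −0.50, and *Pdia4*, −0.48) and 1 higher (*Sdf2l1*, 0.62) in the *siOct4*-labelled libraries at day 6. Over time 8 fell there, led by *Pdia3* (−1.02) and *Calr* (−0.85), and *Sdf2l1* rose (0.84), while in *siNcor1* 2 fell (*Pdia3*, −0.63, and *Canx*, −0.50) and 0 rose. The change between days was called lower for 2 and higher for 1. The counts at day 6 were near the shares of all tested genes (18.6% lower and 12.1% higher). Those for the change between days were near theirs as well (12.9% and 7.77%). In *siNcor1* the 2 that fell were near the 20.9% of all tested genes.

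Genes outside the 10 that are known to be induced by hypoxia formed another list. Of 13 tested, 1 was lower in the *siOct4*-labelled libraries at day 3 (*Pdk1*, −0.67) and 0 were higher. At day 6, 5 were higher, among them *Pdk1* (1.12) and *Higd1a* (0.95), and 2 were lower (*Adm*, −1.16, and *Slc2a1*, −0.77). Over time in the *siOct4*-labelled libraries 7 rose, led by *Ankrd37* (2.77) and *Bnip3* (2.62), and 1 fell, *Adm* (−1.49). In *siNcor1* 6 rose, led by *Ankrd37* (2.24) and *Slc2a1* (1.82), and 1 fell, *Egln1* (−0.53). The change between days was called higher for 3 and lower for 1. *P4ha1* and *P4ha2*, which are themselves known hypoxia targets, were not called higher in any of these comparisons. *Plod2* was not called either (−0.24 at day 3 and 0.39 at day 6). With quantile normalization it was called higher at day 6 (0.45, adjusted p = 0.0388). A link of the 10 genes to hypoxia was not tested.

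Markers of the cells in the culture also differed between the groups. All 9 fibroblast markers were called lower in the *siOct4*-labelled libraries at day 6, and 0 were called at day 3, with *Pdgfra* (−1.14) and *Col1a1* leading. Their summed level was 7622 to 8097 CPM in *siNcor1* and 10459 to 11850 CPM in the *siOct4*-labelled libraries at day 3, and 5161 to 5240 CPM and 2847 to 2909 CPM at day 6. Most of this sum came from *Col1a1*, *Col1a2* and *Vim* in every library. *Col1a1* and *Col1a2* are substrates of the 10 genes, so the sum is no separate measure of fibroblast content. The summed level of the 10 genes had the same order, with 1676 to 1933, 2338 to 2375, 1507 to 1663 and 1177 to 1243 CPM. *Serpinh1* was the largest part of that sum in every library, and *Plod2* on its own had the opposite order between the knockdowns on both days. Over time, 3 of the fibroblast markers fell and 4 rose in *siNcor1*, and 5 fell and 0 rose in the *siOct4*-labelled libraries. The 3 smooth muscle markers, *Acta2*, *Myh11* and *Cnn1*, summed to between 1269 and 2804 CPM at day 3 and between 134 and 378 CPM at day 6, with 3 of 3 lower in the *siOct4*-labelled libraries at day 6. At day 3 *Cnn1* was called higher there (0.97, adjusted p = 0.0201), and the other two differed by 0.65 (*Myh11*) and 0.78 (*Acta2*) without a call. The 6 epithelial markers summed to 53.7 and 55.4 CPM in *siNcor1* and 15.4 and 17.8 CPM in the *siOct4*-labelled libraries at day 3, and to 647 and 683 against 272 and 302 CPM at day 6, and all 6 rose in both knockdowns over time. Of the 6, 4 were called lower in the *siOct4*-labelled libraries at day 3 and 5 at day 6. Endothelial markers summed to at most 44.3 CPM, with *Pecam1* at 9 reads or fewer and *Cdh5* at 5 or fewer. *Tek* carried most of that sum and fell in both knockdowns over time (−1.22 in *siNcor1*, adjusted p = 1.3e-04, and −1.31 in the *siOct4*-labelled libraries, adjusted p = 2.3e-05). Leukocyte markers summed to at most 11.9 CPM. The part of these cell types in the results on the 10 genes was not tested.

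As a description of likeness over the 8 libraries, which fall into 4 groups and so are no independent points, the levels of *Lox* and *Loxl2* had a Pearson r of 0.992 with each other, and those of *P4ha2* and *P4ha3* 0.959. *Plod1* and *Plod2* had the lowest r of the 45 pairs, −0.749. The non-member genes most like each gene were *Mast2* (r = 0.999) and *Fbln2* (0.997) for *Lox*, *Inhba* (0.999) and *Golim4* (0.999) for *Loxl2*, *Tead3* (0.996) and *Gnai2* (0.996) for *Loxl1*, and *Osbpl5* (0.996) and *Dnajc18* (0.995) for *Pcolce*. For the alpha subunits they were *Slc1a3* (0.971) and *Flt4* (0.962) with *P4ha1*, *Avpr1a* (0.991) and *Mkl1* (0.990) with *P4ha2*, and *Slc2a13* (0.995) and *Jph2* (0.993) with *P4ha3*. *Plod1* was most like *Ttll11* (0.934) and *Kif3c* (0.931), *Plod2* like *Zscan12* (0.979) and *Tube1* (0.964), and *Serpinh1* like *Cptp* (0.979) and *Gm42778* (0.976).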

How the data were processed

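RNA-seq was measured in 8 libraries of reprogramming MEFs, 2 in each of the 4 groups of knockdown and day given by the sample labels. Libraries were made from 200 ng of total RNA after depletion of ribosomal RNA. The submitters' processing notes name STAR 2.5.2b, edgeR 3.20.9 and the builds mm10 and GRCm38. The values the authors deposited are log2-cpm, a log2 scale that the study computed with edgeR from read counts and which adds a small constant before the log. The tool that counted reads on genes, and whether it used strand, are not given in the sources used here. The authors deposited no columns of their own comparisons in this table.

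Once the constant was removed, 100% of the values up to 1000 reads came within 0.1 of a whole number of reads, which set the depth (3 reads stand for 0.174 to 0.380 CPM). The replicates of a group were not the same library (a chi-square of their reads was 9.48 to 21.3 times its degrees of freedom). Of 18990 genes, 18969 were matched to GENCODE M21 for coordinates and exon lengths. The 13866 genes whose mean reached 1 CPM were tested with limma 3.58.1 in R 4.3.3 (lmFit, eBayes with a variance trend, 4 groups in one fit, two-sided, Benjamini-Hochberg adjustment at 0.05). The script was tested on simulated data. RPKM and shares were computed with pandas 2.3.3 in Python 3.11.15 and drawn with matplotlib 3.10.9.

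The 10 genes and the gene lists were chosen with earlier results of these data known. All 10 genes are named in every comparison, with the targeted genes, the partners *P4hb*, *Plod3*, *Bmp1* and *Crtap*, the substrates *Col1a1*, *Col1a2* and *Col3a1*, up to 2 genes per direction from each other list by the size of a called change, and the 2 genes most like each of the 10. *Pcolce2*, *Loxl3*, *Loxl4* and the other genes of short lists of calls were named after their values were seen. The alternatives were other scalings, filters, pseudocounts of 0.1 and 1 CPM, no variance trend, a replicate block, only the groups compared, voom on the recovered reads, each library left out in turn and, chosen after seeing the data, library totals without *Gm26917*.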

Additional observations from a re-analysis of the deposited data

Results flagged for a closer look

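For 7 of the 10 genes the difference between the knockdowns changed between day 3 and day 6 by the test of that change itself (limma over all 13866 tested genes, Benjamini-Hochberg adjusted p under 0.05), where 12.9% of all tested genes were called lower and 7.77% higher. The change of the difference, as the *siOct4*-labelled libraries minus *siNcor1* at day 6 less the same at day 3 on the log2 scale, was −1.92 for *Lox*, −1.59 for *Loxl2*, −1.23 for *Loxl1*, −1.16 for *P4ha3*, −1.07 for *Pcolce*, −0.91 for *P4ha2* and −0.75 for *Plod1*. For all 7 the *siOct4*-labelled mean was the higher one at day 3 and the lower one at day 6. Of these, only *Lox* was called at day 3 itself, and *P4ha2* and *Plod1* were called on neither day. The means of *P4ha1* (0.35 and −0.07) and *Serpinh1* (0.24 and −0.22) turned in the same way without a call. The calls of *P4ha2* and *Plod1* were lost without some single libraries, with adjusted p of up to 0.0789 and 0.128. No sample could be tested for standing apart within its group, since each group holds 2 libraries.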

How the results depend on the processing

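Of 990 values of the 10 genes under the alternatives, 937 kept their direction and their side of the threshold, 23 passed it newly, 22 no longer passed it and 8 changed sign. The number of all genes called at day 3 was 148, against 43 without a variance trend, 81 with a mean of at least 10 CPM and 190 to 222 with median centring, totals without *Gm26917*, only the groups compared or the replicate block. The number of the 10 genes called at day 3 was 1, against 2 with median centring, quantile normalization, a pseudocount of 1 CPM, only the groups compared, voom on the recovered reads or totals without *Gm26917*, where *Loxl2* was added (adjusted p 0.0235 to 0.0499). It was also 2 with the replicate block, which moved *Plod2* past the threshold for the change between days too (0.63, adjusted p = 0.0452). Deviations of libraries with the same number correlated at −0.0395 to 0.281, and the labels do not say what a number shares. With each library left out in turn, the genes called were 3 to 375 at day 3, 1398 to 4669 at day 6, 2360 to 5954 over time in *siNcor1*, 5397 to 7374 in *siOct4* and 1009 to 3667 for the change between days. The 10 genes then gave 0 to 2, 4 to 6, 2 to 4, 6 to 9 and 5 to 8 calls. All sign changes were of values that were not called. These were *Loxl1* over time in *siNcor1* (−0.0015 with voom and library totals, and −0.17 to 0.18 over the left-out libraries), *P4ha1* at day 6 (−0.18 to 0.048, with 0.0011 between them) and over time in *siNcor1* (−0.10 to 0.13), *Serpinh1* over time in *siNcor1* (−0.27 to 0.0075) and *Plod2* over time in *siOct4* (−0.020 to 0.55). The share of higher genes among those called moved from 35.1% to 55.1% at day 3 with voom, 49.5% with only the groups compared and 16.3% without a variance trend, from 39.5% to 28.8% at day 6 with library totals, and over time from 39.8% to 49.8% in *siNcor1* and from 42.1% to 52.8% in *siOct4* without *Gm26917*. The cause of these moves was not tested. Left-out fits assume that the lone library varies like the other groups. The precision rests on 2 libraries a group.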
